A study of Rattus norvegicus with 20 samples.

Results

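The insulin and AMP-activated protein kinase (AMPK) signalling components described here are 10 genes that carry the signal of insulin or of cellular energy in the hepatocyte, namely *Insr*, *Irs1*, *Irs2*, *Pik3r1*, *Akt1*, *Akt2*, *Prkaa1*, *Prkaa2*, *Prkab1* and *Prkag1*. All ProbeSets that the RAE230A array annotation gives these symbols were taken, which made 15 of the 15923 ProbeSets and 10 of the 10412 genes on the array. *Akt1* and *Akt2* had 3 ProbeSets each, *Prkaa1* had 2, and the other genes had 1. The genes were chosen with earlier results of these data known, and the values that led to the choice were the group means of *Pik3r1* and *Prkaa2*. Values of the 10 genes are therefore given as description, without p-values.

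Liver mRNA was measured in 20 male rats of 10 to 12 weeks, 4 each of 2 derived lines and 3 strains, with 1 Affymetrix RAE230A array per rat. Line-A carries the variant *Ahr*, the allele of the aryl hydrocarbon receptor that comes from H/W rats, and Line-C carries the wild-type *Ahr*. Both lines descend from crosses of L-E with H/W. H/W (Kuopio), a random-bred closed colony, carries the variant receptor, while L-E (Turku/AB), an inbred strain, and S-D, an outbred strain, carry the wild-type allele. All rats had received corn oil by gavage 19 hours before the liver was taken, although the labels of the S-D arrays say only control. The log2 signals are the authors' GC-RMA output, a method that models probe background from GC content, brings the arrays to a common distribution and summarises the probes of a ProbeSet. A ProbeSet was counted as expressed from a mean signal of 4 upwards, here called the limit of expression. Values are given as mean ± SD over the 4 rats of a group, and their precision is limited by having 4 arrays a group. Standard errors (SE) come from a linear model that pools the spread over the 5 groups.

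Insulin binds its receptor, which phosphorylates the IRS adaptors; these recruit PI 3-kinase, and the lipid it makes brings AKT to the membrane. In liver, AKT restrains glucose output through FOXO1 and favours the storage of glucose as glycogen and fat. AMPK is a trimer of a catalytic alpha, a scaffolding beta and a nucleotide-sensing gamma subunit that is switched on when AMP rises, and it slows fatty acid and sterol synthesis while promoting fat oxidation.

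The arrays were scanned on 5 days. The arrays of both lines shared 1 day, the S-D arrays had a day, a chip lot and an operator of their own, and the parent strains took up the other 3 days, 2 of which held arrays of both. Differences between a line and a parent strain or S-D thus cannot be told apart from scan day, and those from S-D cannot be told apart from operator either. The array medians lay between 3.47 and 3.69. All 11 hepatocyte markers on the array were expressed, as the labelled tissue implies, and their summed level lay between 18.07 and 18.25 in all arrays. No marker of adipocytes or skeletal muscle, of 8 on the array, had a mean signal of at least 4. In bulk liver, fewer cells of a type and less RNA per cell cannot be told apart.

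The upstream sequences of *Pik3r1* and *Prkaa2* are shown because the choice of genes rests on the group means of this pair and because the design contrasts 2 alleles of a transcription factor. They are the 250 bases before the annotated start, from RefSeq on GRCr8, and lie at chr2:34697661-34697910 (minus strand) and chr5:125108325-125108574 (minus strand). Capitals mark the core of the AHR response element, GCGTG, on either strand (CACGC on the other).
Pik3r1: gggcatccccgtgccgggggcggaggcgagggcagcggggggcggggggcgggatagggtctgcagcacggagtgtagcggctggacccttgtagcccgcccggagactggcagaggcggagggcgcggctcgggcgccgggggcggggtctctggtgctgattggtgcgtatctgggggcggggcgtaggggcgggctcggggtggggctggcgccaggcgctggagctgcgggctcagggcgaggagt
Prkaa2: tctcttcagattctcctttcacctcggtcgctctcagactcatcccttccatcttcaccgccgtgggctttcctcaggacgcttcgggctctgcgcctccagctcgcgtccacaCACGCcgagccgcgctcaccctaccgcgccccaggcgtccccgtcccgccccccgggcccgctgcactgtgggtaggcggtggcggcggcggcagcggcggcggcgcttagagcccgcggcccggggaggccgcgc
The core was absent from the *Pik3r1* window and occurred once in that of *Prkaa2*, starting at base -136 from the start. Of the 9 members matched in the promoter table, 5 had it in their window (*Insr*, *Irs1*, *Prkaa2*, *Prkab1* and *Prkag1*), against 25.9% of all 33469 promoters. The core that FOXO factors bind, GTAAACA on either strand (TGTTTAC on the other), was found only in the *Insr* window among these 9, against 3.2% of all promoters. A match of letters is a description and no measure of binding.

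*Pik3r1*, which encodes a regulatory subunit of PI 3-kinase, was expressed in H/W liver and lay under the limit of expression in the other groups. Its signal (1370114_a_at) was 3.36, 3.33, 3.66 and 3.37 in the 4 Line-A rats, 3.25, 3.35, 3.35 and 3.33 in the Line-C rats, 4.43, 5.55, 6.55 and 4.56 in the H/W rats, 3.18, 3.10, 3.16 and 3.10 in the L-E rats, and 3.39, 3.31, 3.30 and 3.15 in the S-D rats. Each H/W value exceeded each value of the other 16 rats, while the rest stayed within a narrow band. The H/W rats themselves were spread widely, at 5.27 ± 0.99, with replicate 3 highest. Since the other means were under 4, H/W was at least 2.41-fold higher, as the fold of its mean over the limit. That bound holds for the mean with replicate 3 included and not for each rat, as replicates 1 and 4 lay at 4.43 and 4.56. The measured log2 difference was 2.14 ± 0.31 (SE) for H/W minus L-E, 1.98 for H/W minus S-D, -1.84 for Line-A minus H/W and -1.95 for Line-C minus H/W.

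*Pik3r1* was also higher in H/W within each scan day that had both parents, but the measured difference from L-E, which lay under the limit, varied. It was 2.93 on the day with 2 H/W and 3 L-E arrays (6.05 in H/W, 3.12 in L-E), 1.25 on the day with 1 of each (4.43 in H/W, 3.18 in L-E), and 2.43 with scan day as a fixed block. H/W replicate 3, the highest *Pik3r1* array, also had the largest 3' minus 5' difference of the GAPDH control, 0.811 against 0.165 to 0.578 in the other 19 arrays. The part of RNA quality in the *Pik3r1* values was not tested. Without that array the H/W minus L-E difference was 1.71.

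**Figure D1:**
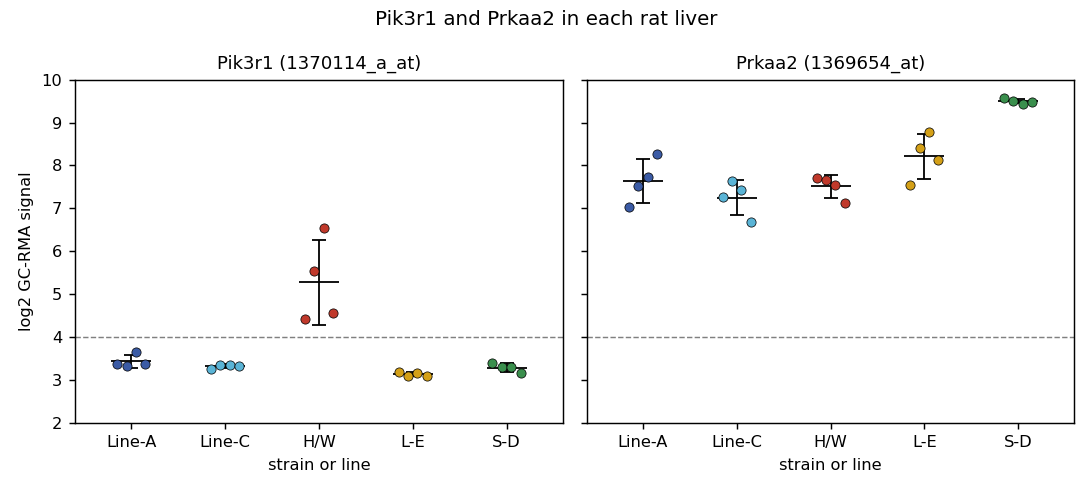
Log2 GC-RMA signal (vertical axis) of Pik3r1 and Prkaa2 in each rat (points), by strain or line (horizontal axis), with the mean and SD of the 4 rats as black bars and the limit of expression at 4 as a dashed line. For Pik3r1 the 4 H/W rats lie between 4.43 and 6.55 and all others under 4, and for Prkaa2 the 4 S-D rats lie between 9.44 and 9.57, above every other rat.

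No other gene of the insulin arm was set apart in H/W. *Insr*, the insulin receptor, was under the limit in every rat (1369051_at), with group means of 2.80 to 2.90 except in L-E, where the 4 rats gave 3.69, 3.58, 3.76 and 2.83, so that no level of this receptor can be given. *Irs1*, the adaptor first described in the cascade, sat close to the limit at 4.31 ± 0.20 for Line-A, 4.53 ± 0.07 for Line-C, 4.43 ± 0.17 for H/W, 4.67 ± 0.30 for L-E and 4.39 ± 0.04 for S-D. Its highest group, L-E, overlapped with each of the others.

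*Irs2*, the adaptor whose transcription insulin represses in liver, was highest in L-E. Its signal (1371091_at) was 4.93, 4.69, 4.49 and 4.82 for Line-A, 4.77, 4.68, 4.98 and 5.17 for Line-C, 5.08, 4.75, 4.68 and 4.96 for H/W, 5.96, 5.78, 6.65 and 5.18 for L-E, and 5.44, 5.0, 4.99 and 5.92 for S-D. All L-E rats lay above all rats of Line-A, Line-C and H/W but overlapped with S-D. The difference was -1.03 ± 0.25 (SE) for H/W minus L-E, -1.16 for Line-A minus L-E and -1.0 for Line-C minus L-E, so both lines lay near their H/W parent. Within the scan day of 2 H/W and 3 L-E arrays it was -1.16 for H/W minus L-E, and -0.88 on the day with 1 of each.

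The AKT kinases, which phosphorylate FOXO1 and GSK3, gave different pictures by ProbeSet. *Akt1* (1383126_at) was 8.33 ± 0.21 for Line-A, 8.65 ± 0.26 for Line-C, 9.01 ± 0.29 for H/W, 8.89 ± 0.12 for L-E and 8.92 ± 0.07 for S-D. A further *Akt1* ProbeSet (1368862_at) gave 5.86, 5.37, 4.81 and 5.61 for Line-A, 5.67, 4.17, 5.52 and 6.30 for Line-C, 7.09, 7.46, 7.24 and 5.87 for H/W, 6.53, 6.96, 6.84 and 6.87 for L-E, and 6.73, 6.90, 6.47 and 6.89 for S-D. Both lines were thus lower than L-E and S-D without overlap on this ProbeSet, and only H/W replicate 4 reached down into the range of the lines. Line-A minus H/W was -1.51 ± 0.38 (SE) on 1368862_at and -0.69 ± 0.14 on 1383126_at, and Line-C minus H/W was -1.50 and -0.36. Summed Kupffer cell and macrophage markers, all 9 on the array expressed, lay between 11.14 and 11.30 in Line-A and between 11.45 and 12.40 in the other groups, and their part in the Line-A values was not tested. The 2 ProbeSets had a Pearson r of 0.80 over the 20 arrays, and the last *Akt1* ProbeSet (1375178_at) was unexpressed, at 1.54 to 1.61 in the group means.

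*Akt2*, the isoform that mediates most of insulin's effect on liver glucose metabolism in mice, had 3 expressed ProbeSets. On 1388765_at it was 6.82 ± 0.11 for Line-A and 6.87 ± 0.15 for Line-C, against 7.59 ± 0.32 for H/W, 7.66 ± 0.39 for L-E and 7.65 ± 0.12 for S-D, and the rats of both lines were below all others. On 1368832_at it was highest for L-E, with 6.72 ± 0.35 for Line-A, 6.81 ± 0.45 for Line-C, 7.12 ± 0.63 for H/W, 8.08 ± 0.17 for L-E and 7.14 ± 0.07 for S-D. L-E was also highest on 1387353_at, with 7.39 ± 0.14 for Line-A, 7.32 ± 0.40 for Line-C, 7.47 ± 1.04 for H/W, 8.42 ± 0.20 for L-E and 7.55 ± 0.21 for S-D. H/W replicate 3 was far below its group on that ProbeSet, at 5.97 against 7.67 to 8.36 in the other 3 H/W rats, and Line-C replicate 1 was at 6.73. Pearson r over the 20 arrays was 0.74 between 1368832_at and 1387353_at, 0.50 between 1368832_at and 1388765_at, and 0.26 between 1387353_at and 1388765_at. The H/W minus L-E difference was -0.96 ± 0.26, -0.95 ± 0.35 and -0.07 ± 0.17 (SE) on 1368832_at, 1387353_at and 1388765_at, so L-E stood higher than H/W on 2 of the 3 ProbeSets. Without H/W replicate 3, the array with the largest GAPDH difference, it was -0.45 on 1387353_at and -0.76 on 1368832_at.

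**Figure D2:**
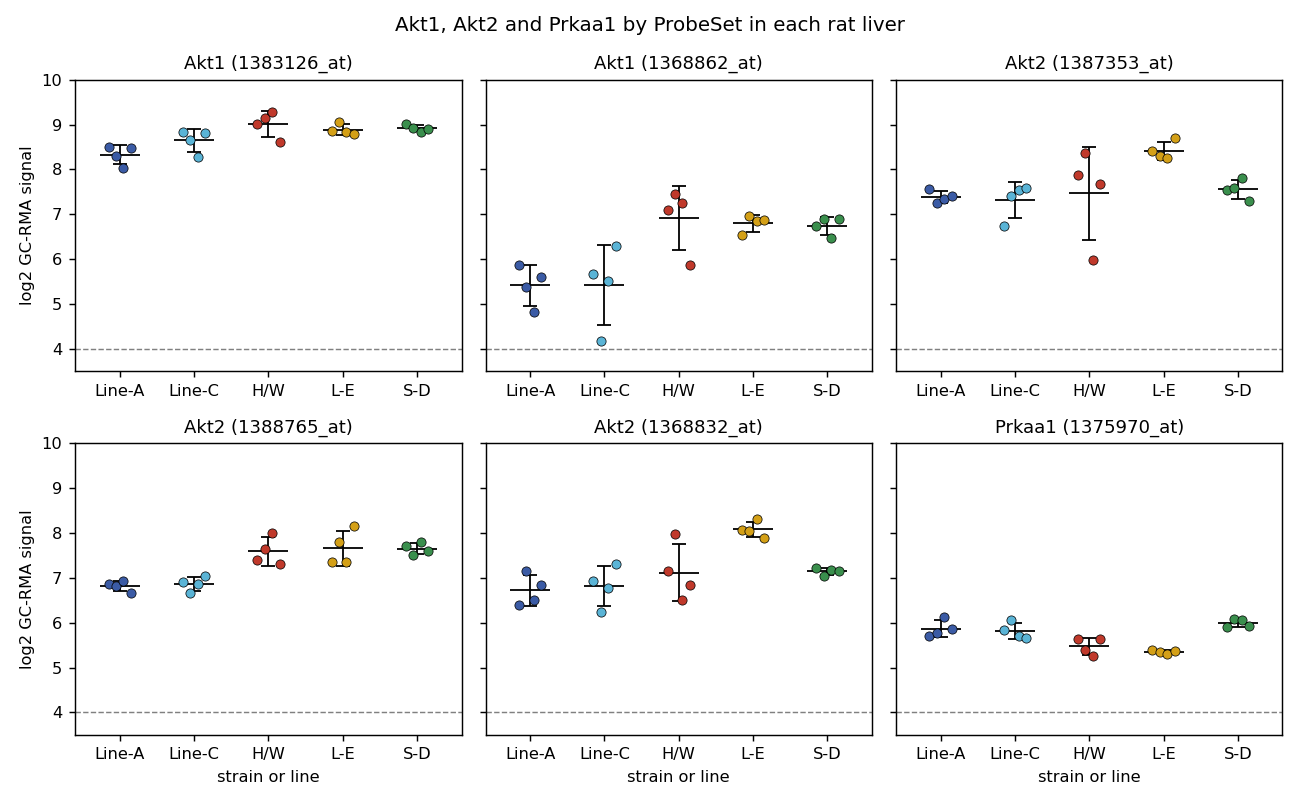
Log2 GC-RMA signal (vertical axis) of the expressed Akt1, Akt2 and Prkaa1 ProbeSets in each rat (points), by strain or line (horizontal axis), with mean and SD of 4 rats as black bars and the limit of expression at 4 dashed. Akt2 is highest in L-E on 1368832_at and 1387353_at (means of 8.08 and 8.42) but not set apart there on 1388765_at (7.66 in L-E, 7.65 in S-D).

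*Prkaa2*, which encodes the alpha2 catalytic subunit of AMPK, was highest in S-D. Its signal (1369654_at) was 7.03, 7.53, 7.74 and 8.26 for Line-A, 7.26, 7.64, 7.42 and 6.69 for Line-C, 7.70, 7.67, 7.55 and 7.13 for H/W, 7.54, 8.41, 8.78 and 8.12 for L-E, and 9.57, 9.50, 9.44 and 9.49 for S-D. All rats of the other 4 groups were below every S-D rat. The SD was 0.27 to 0.52 in these groups and 0.05 in S-D, whose rats differed little. The 4 groups below S-D overlapped with one another. The difference was -1.86 ± 0.27 (SE) for Line-A minus S-D, -2.25 for Line-C minus S-D, -1.99 for H/W minus S-D and -1.29 for L-E minus S-D. These are folds of 3.64, 4.75, 3.97 and 2.44 in favour of S-D.

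Among the groups under S-D, *Prkaa2* averaged 7.51 ± 0.27 in H/W and 8.21 ± 0.52 in L-E, a difference of -0.70 ± 0.27 (SE) for H/W minus L-E that did not keep its sign within scan days. It was -0.83 on the day with 2 H/W and 3 L-E arrays but 0.16 on the day with 1 of each. Line-A, at 7.64 ± 0.51, lay between its parents, and Line-C, at 7.25 ± 0.41, lay below both by means that overlapped. The 3' minus 5' difference of GAPDH was 0.34 ± 0.12 for Line-A, 0.45 ± 0.05 for Line-C, 0.49 ± 0.22 for H/W, 0.28 ± 0.04 for L-E and 0.56 ± 0.02 for S-D. Summed stellate cell and fibroblast markers, 8 of 11 expressed with *Des*, *Lum* and *Tagln* under the limit, lay between 9.66 and 10.00 for Line-A, 9.70 and 10.46 for Line-C, 9.42 and 10.01 for H/W, 9.25 and 9.63 for L-E, and 10.78 and 11.58 for S-D. Summed endothelial markers, 4 of 6 expressed with *Pecam1* and *Vwf* under the limit, lay between 10.59 and 11.01 in the other groups and between 11.23 and 11.47 in S-D. Summed cholangiocyte markers, 1 of 4 expressed with *Krt19*, *Krt7* and *Spp1* under the limit, lay between 5.90 and 6.62 in the other groups and between 6.63 and 7.10 in S-D. The part of these shifts in the S-D values was not tested.

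The other AMPK subunits moved much less. *Prkaa1*, the alpha1 catalytic subunit (1375970_at), was 5.70, 5.76, 6.13 and 5.87 for Line-A, 5.83, 6.07, 5.70 and 5.66 for Line-C, 5.64, 5.40, 5.25 and 5.63 for H/W, 5.39, 5.34, 5.30 and 5.36 for L-E, and 5.91, 6.08, 6.05 and 5.92 for S-D. L-E and H/W lay lowest, and both lines lay above both parents, with a lowest value of 5.66 against a highest of 5.64. The difference was 0.52 ± 0.10 (SE) for Line-A minus L-E, 0.47 for Line-C minus L-E, -0.51 for H/W minus S-D and -0.64 for L-E minus S-D. The other *Prkaa1* ProbeSet (1369104_at) was unexpressed, at 3.16 to 3.34 in the group means.

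*Prkab1*, the beta1 scaffold (1386945_a_at), was 9.29 ± 0.46 for Line-A, 8.82 ± 0.40 for Line-C, 8.74 ± 0.28 for H/W, 9.10 ± 0.39 for L-E and 8.64 ± 0.37 for S-D, and all groups overlapped. *Prkag1*, the gamma1 subunit (1367947_at), was 6.37 ± 0.12 for Line-A, 6.50 ± 0.08 for Line-C, 6.94 ± 0.33 for H/W, 6.50 ± 0.37 for L-E and 6.79 ± 0.21 for S-D. Its widest difference was -0.57 ± 0.17 (SE) for Line-A minus H/W, with a highest value of 6.47 in Line-A and a lowest of 6.56 in H/W. With each gene at its ProbeSet of highest mean signal, the group means of *Prkaa2*, which chose the gene, spanned 2.25, against 0.57 to 0.65 for the 3 other subunits. In the insulin arm the 5 genes other than *Pik3r1* spanned 0.36 to 1.16, and the *Akt1* ProbeSet 1368862_at spanned 1.51 and the *Akt2* ProbeSet 1368832_at 1.36. The H/W mean of *Pik3r1*, a gene also chosen on its means, lay 1.27 above the limit, so its span is not set apart from these.

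**Figure D3:**
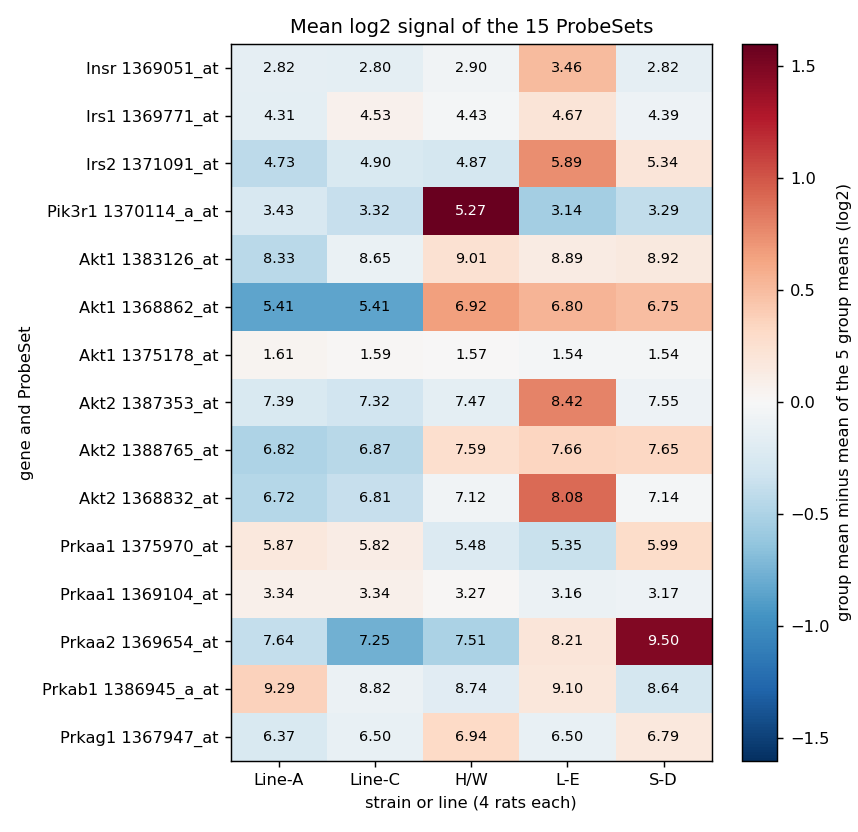
Mean log2 signal of 4 rats (number in each cell) for the 15 ProbeSets (rows) in the 5 strains and lines (columns), coloured by its difference from the mean of the 5 group means. Pik3r1 in H/W (5.27) and Prkaa2 in S-D (9.50) have the deepest red, and the Akt1 ProbeSet 1368862_at is lower in both lines (5.41) than in the strains (6.75 to 6.92).

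Of the 15 ProbeSets, 11 had a mean signal of at least 4, and these 11 also reached 4 on each of the 20 arrays. A linear model with a mean per group (limma, with Benjamini-Hochberg adjustment across the whole array) called 3 of the 15 in the F-test at 0.1% false discovery rate, namely *Pik3r1*, *Prkaa2* and *Prkaa1* (1375970_at), where 4.6% of all ProbeSets were called. At 1% in at least 1 of the 10 pairs it called 8 of the 15, where 14.6% of all were called. As the genes were chosen on these values, nothing is read from either count. The *Ahr* coefficient is the term for the variant allele in a model with the background of the lines set midway between the parents. In this balanced design its size equals Line-A minus Line-C, so it is that contrast with another residual spread and threshold. No member passed it at 5%, which 0.659% of all ProbeSets passed, and 0 were at an unadjusted p under 0.05, against 6.71% of all. None passed the difference between H/W minus L-E and Line-A minus Line-C at 1%, which 0.898% of all ProbeSets passed, and 8 of the 15 were at an unadjusted p under 0.05, against 11.8% of all. Since these 8 include genes chosen on the same group means, nothing is read from that count. Line-A minus Line-C, within 1 scan day, was 0.11 ± 0.31 for *Pik3r1* and 0.38 ± 0.27 for *Prkaa2* (SE). It was 0.47 ± 0.26 for *Prkab1* and -0.32 ± 0.14 for *Akt1* on 1383126_at (SE). The lines differ in the *Ahr* allele, but any other genetic difference between them cannot be told apart from the allele.

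The genes most like *Pik3r1* and *Prkaa2* are given by Pearson r of the log2 signal over the 20 arrays, among ProbeSets with 1 symbol and a mean of at least 4. As description, the highest for *Pik3r1* were *Sh3gl3* (0.893), *Mgll* (0.848), which cleaves monoacylglycerol, and *Ipo13* (0.816), and the lowest were *Slco1b2* (-0.930), a bile acid and drug importer, *Bco1* (-0.845) and *Mtmr6* (-0.840). *Mgll* was 5.41 ± 0.13 for Line-A, 4.86 ± 0.39 for Line-C, 6.75 ± 0.40 for H/W, 5.46 ± 0.23 for L-E and 5.54 ± 0.26 for S-D. The 4 H/W arrays carry most of these values, since *Pik3r1* was near constant elsewhere. For *Prkaa2* the highest were *Nedd4* (0.955), a ubiquitin ligase, *Cpd* (0.937) and *Abi1* (0.936), and the lowest were *Psmc4* (-0.876), *Rhoa* (-0.874) and *Apob* (-0.853). *Cpd*, a carboxypeptidase, was 6.52 ± 0.41 for Line-A, 5.80 ± 0.41 for Line-C, 6.58 ± 0.66 for H/W, 7.60 ± 0.90 for L-E and 9.22 ± 0.34 for S-D. The 20 arrays are not independent points, since the rats of a group share strain and most share scan day, so no p is given.

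The expressed genes next to *Pik3r1* in the current annotation did not have its pattern. *Slc30a5*, on one side, was 7.69 ± 0.01 for Line-A, 7.69 ± 0.07 for Line-C, 7.67 ± 0.26 for H/W, 7.84 ± 0.14 for L-E and 7.65 ± 0.10 for S-D. *Erbin*, on the other side, was 7.40 ± 0.36 for Line-A, 7.19 ± 0.36 for Line-C, 7.34 ± 0.60 for H/W, 8.14 ± 0.42 for L-E and 8.21 ± 0.14 for S-D. Beside *Prkaa2*, *C8b*, a complement gene, was 10.09 ± 1.22 for Line-A, 9.11 ± 0.07 for Line-C, 9.80 ± 0.85 for H/W, 11.37 ± 0.10 for L-E and 11.37 ± 0.07 for S-D. *C8b* thus shared the high S-D level but, unlike *Prkaa2*, had the same level in L-E. *Plpp3*, on the other side, was 11.34 ± 0.21 for Line-A, 11.15 ± 0.12 for Line-C, 11.01 ± 0.17 for H/W, 11.69 ± 0.26 for L-E and 11.08 ± 0.11 for S-D, and thus was highest in L-E and not in S-D. The choice of these neighbours was made with their values in view. Among the 5 expressed genes on each side of *Prkaa2*, *Leprot* was highest in S-D, at 7.21 ± 0.10, against means of 6.22 to 6.79 elsewhere. *Ak4* and *Tmem59* also had their highest mean in S-D, at 10.41 and 12.04. *Pde4b*, *Mier1*, *Usp24*, *Mrpl37* and *Tceanc2* were highest in other groups.

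Gene lists for the rest of the pathways were also chosen with earlier results known, so their shares and p-values are no independent test. The 9 lists held 159 further symbols. The array held 129 of them, and 91 had a mean signal of at least 4. The F-test called 6 of the 129 (4.65%), against 4.98% of all genes, and at least 1 pair called 24 (18.6%), against 15.8% of all genes, each gene at its ProbeSet of highest mean signal. The group means spanned a median of 0.38 in the listed genes and 0.22 in all genes, of which 5388 of 10412 were expressed. Among expressed genes the F-test called 5 of the 91 listed (5.49%) and 8.98% of all. At an unadjusted p under 0.05 in the F-test stood 72 listed genes (55.8%), against 52.7% of all genes, which is the background for the count at that level in each list. The *Ahr* coefficient called 1 listed gene (0.74% of all genes) and the difference between the parents' and the lines' contrasts called 1 (0.951% of all genes).

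In the receptor and adaptor list, 0 of 9 genes passed the F-test and 3 were at an unadjusted p under 0.05 in limma. Its gene of highest mean signal was *Grb2*, the adaptor that leads to RAS, at 8.89 ± 0.08 for Line-A, 8.86 ± 0.07 for Line-C, 8.70 ± 0.12 for H/W, 8.91 ± 0.05 for L-E and 8.68 ± 0.12 for S-D. Among 10 further genes of PI 3-kinase subunits and associated proteins 0 passed the F-test, with 5 at an unadjusted p under 0.05. Of these genes 1 passed a pair, *Pik3c3*, the class III enzyme of autophagy. *Pik3c3* had its highest mean in H/W, with 6.03 ± 0.36 for Line-A, 5.67 ± 0.17 for Line-C, 7.04 ± 0.69 for H/W, 5.58 ± 0.07 for L-E and 6.66 ± 0.20 for S-D. Unlike *Pik3r1* it was also high in S-D, whose rats (6.41 to 6.90) lay within the H/W range (6.14 to 7.80). L-E minus S-D was -1.08 (adjusted p = 0.00977, limma, and 0.0839 with scan day as a random block). H/W replicate 3, the highest H/W rat for *Pik3r1*, was the lowest for *Pik3c3*. H/W minus L-E was 1.46 ± 0.25 (SE; adjusted p = 0.00299, limma) and 1.18 with scan day as a fixed block (adjusted p = 0.0065). It was 1.02 on the day with 2 H/W and 3 L-E arrays and 1.56 on the day with 1 of each, and the adjusted p was 0.0116 without H/W replicate 1, with the call also lost without L-E replicate 2. *Pik3r4*, its partner and the gene of highest mean signal in the list, was highest in Line-C, at 7.55 ± 0.10, and lowest in S-D, at 7.24 ± 0.15.

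In the AKT arm 3 of 15 genes passed a pair and 1, *Foxo1*, passed the F-test. *Foxo1*, the AKT target that drives gluconeogenic genes, had a mean past the limit only in S-D, at 2.88 ± 0.02 for Line-A, 2.88 ± 0.02 for Line-C, 2.91 ± 0.05 for H/W, 3.20 ± 0.47 for L-E and 5.20 ± 0.45 for S-D (F-test adjusted p = 1.36e-06, limma). S-D was at least 2.30-fold higher, as the fold of its mean over the limit, and its values of 4.72 to 5.80 did not overlap with any other group. The other 2 *Foxo1* ProbeSets were unexpressed in all groups. *Akt1s1*, an AKT substrate that restrains mTORC1, was lower in Line-A, at 7.31 ± 0.34, than in L-E, at 8.26 ± 0.15 (adjusted p = 0.00171, limma), a call lost with scan day as a random block (0.0192). *Pde3b*, a phosphodiesterase that AKT activates, was lower in Line-A, at 4.84 ± 0.28, than in S-D, at 5.80 ± 0.26 (adjusted p = 0.00178), also lost with that block (0.03). *Sgk1*, a kinase related to AKT and the gene of highest mean signal in the list, varied widely within groups and was highest in Line-A, at 10.71 ± 0.98, and lowest in L-E, at 9.07 ± 0.71.

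In the mTORC1 arm 0 of 17 genes passed the F-test, with 9 at an unadjusted p under 0.05, and 2 passed a pair by small differences. *Rps6*, a ribosomal protein that S6 kinase phosphorylates, differed by 0.28 ± 0.05 (SE) for Line-A minus H/W (adjusted p = 0.00181, limma, and 0.0182 with scan day as a random block), and *Rheb*, the GTPase that switches mTORC1 on, by 0.37 ± 0.08 for Line-C minus L-E (adjusted p = 0.00609, and 0.0523 with that block). The call of *Rheb* was also lost without any 1 of 6 arrays, with 0.0222 without Line-C replicate 2. Among 23 inhibitors of insulin signalling 4 passed a pair and 1 the F-test, *Ppp2r5c*, a regulatory subunit of the phosphatase PP2A. *Ppp2r5c* was 6.35 ± 0.24 for Line-A, 6.38 ± 0.12 for Line-C, 6.65 ± 0.28 for H/W, 6.78 ± 0.28 for L-E and 7.52 ± 0.13 for S-D (F-test adjusted p = 1.71e-04), with S-D above all other rats. Its adjusted p was 0.00115 without S-D replicate 4, which misses the F-test's threshold of 0.1%. *Ceacam1*, which promotes insulin clearance, was higher in Line-C, at 10.59 ± 0.10, than in S-D, at 9.95 ± 0.07, on the ProbeSet of highest mean signal (adjusted p = 0.00134, and 0.0225 with scan day as a random block). On its other ProbeSet Line-C was also above S-D, at 7.31 against 6.35, but L-E was highest, at 8.13. That ProbeSet, not used for the counts, had an F-test adjusted p of 2.86e-04 (limma), against 0.00161 on the one used.

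Of the 2 further AMPK subunits on the array neither passed the F-test or a pair, and both were at an unadjusted p under 0.05 in the F-test of limma, although 1 of them, *Prkab2*, was unexpressed. *Prkag2*, the gamma2 subunit, was 4.29 ± 0.14 for Line-A, 4.17 ± 0.12 for Line-C, 4.19 ± 0.13 for H/W, 4.21 ± 0.16 for L-E and 3.95 ± 0.08 for S-D. Its S-D mean was the lowest but lay under the limit, with the others close to it, so no size is read from this. Among 18 genes of a mixed list of AMPK regulators and related kinases, 2 passed a pair. *Adipor2*, an adiponectin receptor upstream of AMPK, was 4.33 ± 0.18 for Line-A, 3.13 ± 0.22 for Line-C, 5.23 ± 0.67 for H/W, 4.32 ± 0.31 for L-E and 6.01 ± 0.43 for S-D (F-test adjusted p = 1.80e-05). Line-C alone was under the limit, so that S-D was at least 4.03-fold higher than Line-C. *Flcn*, a tumour suppressor that binds AMPK through its partners, was lower in Line-A, at 6.72 ± 0.13, than in L-E, at 7.75 ± 0.19 (adjusted p = 0.00291). This call was lost without L-E replicate 2 (0.0118) and with scan day as a random block (0.0346).

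Among 22 AMPK substrates 6 passed a pair and 2 the F-test. *Mlxipl*, the carbohydrate-response factor that AMPK inhibits, was 7.91 ± 0.19 for Line-A, 7.52 ± 0.09 for Line-C, 8.35 ± 0.54 for H/W, 9.28 ± 0.32 for L-E and 7.21 ± 0.31 for S-D (F-test adjusted p = 4.58e-05, limma). *Ulk1*, the autophagy kinase that AMPK activates, was 5.56 ± 0.43 for Line-A, 6.04 ± 0.32 for Line-C, 6.78 ± 0.33 for H/W, 7.49 ± 0.34 for L-E and 6.72 ± 0.13 for S-D (F-test adjusted p = 9.03e-05). Both were thus highest in L-E, and *Ulk1* was lowest in the lines. *Acaca*, acetyl-CoA carboxylase, was higher in Line-A, at 10.53 ± 0.52, than in S-D, at 9.10 ± 0.15 (adjusted p = 0.0025, and 0.0374 with scan day as a random block). *Mlycd*, which breaks down the malonyl-CoA that *Acaca* makes, was lower in Line-A, at 8.92 ± 0.21, than in L-E, at 9.42 ± 0.14 (adjusted p = 0.00286, and 0.0351 with that block). That call was also lost without Line-A replicate 4 (0.0125), L-E replicate 2 or Line-A replicate 3.

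The list of insulin-responsive liver transcripts had the widest spread, with a median span of 1.28 between group means over its 19 genes, of which 6 passed a pair and 1 the F-test. At an unadjusted p under 0.05 stood 16 of them in the F-test (84.2%), against 52.7% of all genes. For the *Ahr* coefficient 10 of the 19 stood at that level, against 791 of all 10412 genes. Of the 19 genes 17 were expressed, against 5388 of all 10412, so the backgrounds are not alike. Nothing is read from either count. *Igfbp2*, which encodes a binding protein of IGF1 and is repressed by insulin, was 3.84 ± 0.20 for Line-A, 4.07 ± 0.37 for Line-C, 3.97 ± 0.06 for H/W, 5.56 ± 0.40 for L-E and 4.0 ± 0.10 for S-D (F-test adjusted p = 1.83e-05, limma). It was thus high in the group where *Irs2* was highest. *Fasn*, fatty acid synthase, was 11.82 ± 0.37 for Line-A, 10.01 ± 0.55 for Line-C, 10.37 ± 0.75 for H/W, 9.72 ± 0.74 for L-E and 9.13 ± 0.33 for S-D, and Line-A exceeded S-D (adjusted p = 1.96e-04, and 0.00487 with scan day as a random block). Its excess over L-E (adjusted p = 0.00217) was lost with that block (0.0184). *Thrsp*, a regulator of lipogenesis, was 13.80 ± 0.28 for Line-A, 11.64 ± 0.65 for Line-C, 12.43 ± 0.48 for H/W, 12.49 ± 0.90 for L-E and 11.15 ± 0.43 for S-D. It was the 1 listed gene past the *Ahr* coefficient, at 2.16 (adjusted p = 0.0135, limma). With scan day as a fixed block the p was 0.0155, but both lines shared 1 scan day, so that block cannot change the estimate. Without Line-C replicate 4 the p was 0.0521. The call was also lost without Line-A replicate 3. The parents, which carry the same alleles, had *Thrsp* means of 12.43 in H/W and 12.49 in L-E. Their H/W minus L-E difference was 0.12 with scan day as a fixed block (adjusted p = 0.893, limma). It was -0.28 on the day with 2 H/W and 3 L-E arrays and 1.07 on the day with 1 of each. *Igf1* was lower in L-E, at 12.94 ± 0.23, than in S-D, at 13.59 ± 0.11 (adjusted p = 0.00197), on the ProbeSet of highest mean signal, a call lost with scan day as a random block (0.014). On its other ProbeSet the lines and not L-E were lowest. Line-A was at 12.84 and Line-C at 12.95 there, with L-E at 13.15 and S-D at 13.42.

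With scan day as a random block, *Foxo1* (adjusted p = 8.41e-05), *Igfbp2* (1.04e-04) and *Adipor2* (4.05e-04) passed the F-test at 0.1%, while *Mlxipl* (0.00102), *Ulk1* (0.00398) and *Ppp2r5c* (0.0046) did not. Of the 52 calls of a pathway gene in a pair, 20 passed 1% with this block and 33 passed in each of the 20 fits without 1 array. The S-D excess of *Foxo1* and *Ppp2r5c*, like that of *Prkaa2*, fell on the scan day and operator that S-D alone had. So did the excess of *Adipor2* in S-D over L-E and both lines, while its S-D rats overlapped with H/W.

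**Figure D4:**
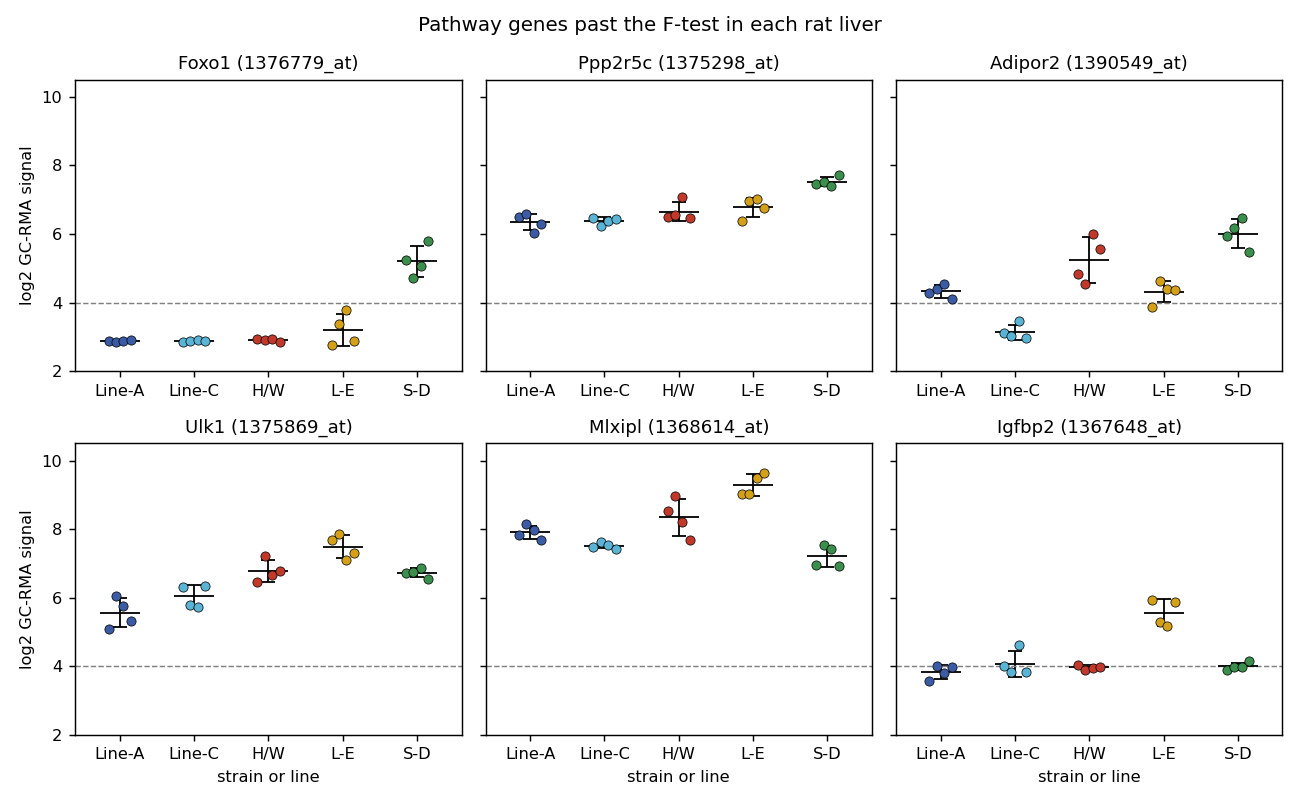
Log2 GC-RMA signal (vertical axis) of the 6 pathway genes past the F-test in each rat (points), by strain or line (horizontal axis), with mean and SD of 4 rats as black bars and the limit of expression at 4 dashed. Foxo1 and Ppp2r5c are highest in S-D (means of 5.20 and 7.52), and Ulk1, Mlxipl and Igfbp2 are highest in L-E (7.49, 9.28 and 5.56).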

How the data were processed

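Liver RNA of 20 rats, 4 per strain or line, was hybridised to Affymetrix RAE230A arrays, 1 rat per array. The deposited log2 signals per ProbeSet were made by the authors with GCRMA 2.10.0 and affy 1.12.0 in R 2.6.1, per the submitters' processing notes, and were used without further scaling. GC-RMA compresses signals near background, so that no size is read from differences under the limit of 4, which the study's methods also use. Deposited array settings served only to group arrays by scan day, chip lot and operator. Of the ProbeSets, 12789 carried 1 symbol, 312 several and 2822 none.

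The members and lists were chosen with earlier results of these data known. Each ProbeSet was tested with limma 3.58.1 (R 4.3.3; statmod 1.5.0 for random blocks). The F-test was called at 0.1%, pairs and the interaction at 1%, and the *Ahr* coefficient at 5% false discovery rate. The *Ahr* model set the background of the lines midway between the parents, which makes its coefficient equal to Line-A minus Line-C. The steps were tested on simulated data. Named were all members, up to 4 called genes a list with the smallest F-test p, the gene of highest mean signal in each list (not all described), and the 3 genes of highest and lowest r with *Pik3r1* and *Prkaa2*. Alternatives were a variance trend, array weights, quantile normalization, equal medians, a filter at 4, ProbeSet means, other thresholds, replicate and scan day blocks, and each array left out.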

Additional observations from a re-analysis of the deposited data

Results flagged for a closer look

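In 8 of 175 groups of 4 rats, over the members and the called pathway genes named, 1 rat lay apart from the others by a gap past the 95% critical value of Dixon's ratio of gap to range. Chance flags about 1 in 20 such groups. Of the members, *Pik3r1* in Line-A had replicate 3 at 3.66 against 3.33 to 3.37 (ratio of 0.884), which is under the limit of expression. The unexpressed *Prkaa1* ProbeSet 1369104_at had H/W replicate 3 at 3.14 against 3.31 to 3.32 (0.919) and L-E replicate 3 at 3.40 against 3.07 to 3.10 (0.897). Among pathway genes, S-D replicate 2 was low for *Akt1s1*, at 7.52 against 7.82 to 7.84 (0.929), for *Ide*, at 8.21 against 8.65 to 8.72 (0.860), and for *Mlycd*, at 9.11 against 9.27 to 9.29 (0.873). *Ppp2r5c* had H/W replicate 3 at 7.07 against 6.48 to 6.54 (0.898), and *Acaca* had Line-C replicate 4 at 9.17 against 9.75 to 9.79 (0.942).

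For *Igfbp2* the measured difference was -1.60 for H/W minus L-E and -0.23 for Line-A minus Line-C, with an adjusted p of 0.00747 for the difference of these contrasts in limma. H/W (3.97) and Line-A (3.84) lay under the limit of expression and Line-C (4.07) close to it, so no size is read from either contrast beyond the 1.56 by which the L-E mean lay above the limit. This p was 0.0123 with scan day as a fixed block. Of 20 fits that each left out 1 array, 16 were not past 1%, and the highest p was 0.0198 without Line-C replicate 2. The measured H/W minus L-E difference was -1.51 on the scan day with 2 H/W and 3 L-E arrays and -1.90 on the day with 1 of each.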

How the results depend on the processing

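The member differences recomputed for *Pik3r1*, *Prkaa2*, *Akt1*, *Akt2*, *Irs2*, *Prkaa1* and *Prkag1* kept their direction under every alternative run, and that of *Pik3r1* for H/W minus L-E alone moved by more than the spread between replicates. *Prkaa2* H/W minus L-E changed sign within scan days, as given above. *Pik3r1* H/W minus L-E, 2.14 over all arrays, was 2.93 and 1.25 within the 2 scan days that held both strains, the 1.25 from a day chosen after seeing the data, and 1.71 (without H/W replicate 3) to 2.42 (without H/W replicate 1) when 1 array was left out. The 6 pathway genes past the F-test became 31 with array weights, 10 with ProbeSets under a mean of 4 left out before the adjustment, 49 at 5% and 3 with scan day as a random block, and 5 to 9 with 1 array left out. The 24 past at least 1 pair became 77 with array weights, 71 at 5% and 9 with the random block, and 18 (without L-E replicate 2) to 56 (without H/W replicate 3). The 1 past the *Ahr* coefficient became 4 with array weights, 0 at 1%, 2 with scan day as a random block and 3 as a fixed block, and 0 (without Line-A replicate 3) to 2 (without Line-A replicate 2). The 1 past the difference of contrasts became 13 with array weights, 3 at 5%, and 0 with quantile normalization, a replicate block or a fixed scan day block, and 0 to 2 with 1 array left out. Except for the count at other thresholds and after the filter, the cause was not tested. Replicate numbers did not pair the rats: over 40 pairs of arrays with the same number in different groups the correlation of deviations ran from -0.34 to 0.22, with 6 over 0.1, and with the replicate block *Pik3r1* H/W minus L-E stayed at 2.14. Scan day as a fixed block could not be fitted for the F-test or for pairs that share no day.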
